A study of Mus musculus with 8 samples.

Results

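Serpins are a family of proteins that mostly inhibit serine proteases. Of the 18691 genes in the deposited files, 47 are described here: all whose symbol begins with Serpin, except Serpina12 and Serping1. They comprised 24 genes of clade A, 14 of clade B, 3 of clade E, 2 of clade F and 1 each of clades C, D, H and I. Clade A was divided by a list into 11 genes best known from liver (Serpina1a, Serpina1b, Serpina1c, Serpina1d, Serpina1e, Serpina3k, Serpina3m, Serpina6, Serpina7, Serpina10 and Serpina11) and 13 others. The genes were read in polyadenylated RNA of epididymal white adipose tissue from C57BL/6J mice aged 16 weeks, in 4 libraries labelled Mrp4 KO (Mrp4-/-), called KO-labelled below, and 4 labelled wild type (WT). Mrp4, encoded by Abcc4, is an ABC transporter that exports cyclic nucleotides and prostanoids. The sex of the mice, the construction of the knockout allele and whether each library came from a different animal are not given in the labels, so the p-values measure the spread between these libraries, which may be technical.

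An inhibitory serpin offers its target protease a flexible stretch near its C terminus, the reactive centre loop, as bait. When the protease cuts the loop, the serpin changes shape and the enzyme stays bound and inactive. The sequence of the loop therefore sets which protease is caught, and it varies more than the rest of the protein. Hepatocytes secrete many clade A serpins into plasma, where some Serpina1 products inhibit elastase and related enzymes and other members carry hormones. Clade B serpins lack a classical signal peptide and act mainly inside cells. Members of clades C to F control clotting, plasmin and tissue remodelling, and the clade H member is a collagen chaperone.

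The 5 Serpina1 genes are shown first because they made up most of the liver clade A signal and are close copies of each other. Their coding sequences were 96.3% to 98.5% identical over the 10 pairs, by alignment of mouse GENCODE vM21 transcripts (GRCm38). The lines below give 60 bases of coding sequence from the hinge of the loop onward, 5′ to 3′, with capitals at the 13 positions at which the 5 copies are not all the same.
Serpina1a: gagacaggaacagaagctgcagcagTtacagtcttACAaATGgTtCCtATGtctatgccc
Serpina1b: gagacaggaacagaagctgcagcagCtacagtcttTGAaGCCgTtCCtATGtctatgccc
Serpina1c: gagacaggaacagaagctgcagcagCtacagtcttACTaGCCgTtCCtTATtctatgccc
Serpina1d: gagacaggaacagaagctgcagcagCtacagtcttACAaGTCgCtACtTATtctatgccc
Serpina1e: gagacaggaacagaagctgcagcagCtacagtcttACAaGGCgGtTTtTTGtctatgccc

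Capitals gather in the second part of each stretch, while the hinge itself is written in the same letters in all 5 copies. The likeness bears on the counts. Of the 100-base windows of each transcript, 58.5% in Serpina1c, 47.4% in Serpina1a, 26.3% in Serpina1d, 24.6% in Serpina1b and 18.2% in Serpina1e also occur letter for letter in another Serpin gene. Since reads were 100 bases long, the division of reads between these copies is uncertain, and their sum is given below as well. In 34 of the 47 genes no such window was shared, Serpinc1, Serpind1, Serpinf1 and Serpinf2 among them.

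Serpina3k and Serpina3m, also of the liver list, and Serpina3n, which is not, are shown for the same stretch because their levels behaved differently. Capitals mark the 23 of 60 positions at which these 3 differ.
Serpina3k: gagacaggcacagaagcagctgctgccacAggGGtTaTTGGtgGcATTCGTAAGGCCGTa
Serpina3m: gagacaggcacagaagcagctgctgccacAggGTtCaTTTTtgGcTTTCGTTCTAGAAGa
Serpina3n: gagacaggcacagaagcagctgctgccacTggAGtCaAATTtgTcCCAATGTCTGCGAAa

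Over the whole transcript, windows shared with another Serpin gene made up 4.85% of Serpina3k, 6.09% of Serpina3m and 0.204% of Serpina3n, less than in any of the 5 Serpina1 genes.

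Some facts of the libraries come before the results. Expected counts summed to 14064681 to 14700114 per library. Abcc4 was read at about the same level under both labels, at 3.6 ± 0.244 FPKM in KO-labelled libraries, against 3.52 ± 0.232 FPKM in WT libraries (SD, n = 4 each; exact two-sided permutation p = 0.571, where 0.0286 is the smallest possible), so each direction below rests on the label. FPKM is the authors' unit of fragments per kilobase of transcript, scaled to the library's total. Transcripts of liver moved with the groups: all 20 genes of a liver list were higher in KO-labelled libraries, with a summed level of 870.1 to 1558 FPKM there and of 54.6 to 130.9 FPKM in WT libraries. Of 8 measured pancreas markers, Cela1 was the only one with a mean above 0.1 FPKM in either group. It was higher in KO-labelled libraries, at a mean of 15.3 FPKM against 7.21 FPKM in WT libraries. Intestine markers summed to 1.11 to 2.82 FPKM in KO-labelled libraries and to 0.34 to 0.41 FPKM in WT libraries. Kidney markers summed to 2.45 to 3.16 FPKM in KO-labelled libraries and to 2.53 to 5.8 FPKM in WT libraries. Epididymis and testis markers summed to 0.22 to 0.32 FPKM in KO-labelled libraries and to 0.36 to 0.78 FPKM in WT libraries other than WT replicate 2, where the sum was 13.8 FPKM. In bulk tissue a change in the number of cells of a type, a change in RNA per cell and RNA from another tissue in the sample cannot be told apart. Genes were compared with edgeR's quasi-likelihood test over 14257 genes with enough counts, with Benjamini-Hochberg adjustment and a threshold of 0.05. By this rule 10.2% of all tested genes were higher and 8.05% lower in KO-labelled libraries, 18.3% in either direction. Of the calls, 1458 of 2606 were higher with TMM scaling and 1950 of 2630 with library size alone. In 16.4% of all tested genes every KO-labelled library lay above every WT library, and in 7.08% every one lay below.

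Most of the tested serpins were higher in KO-labelled libraries. Of the 47 genes, 30 had enough counts to be tested, and 18 of these were higher, 0 lower and 12 did not pass, where 10.2% of all tested genes were higher. The median log2 fold change was 0.93 for the 30 genes and 0.00 for all tested genes. The rise was spread unevenly over the clades. In the liver clade A list, 10 of 10 tested genes were higher, with a median of 3.69 and a range of 0.89 to 4.66. In the other clade A genes 1 of 4 tested genes was higher, with a median of -0.21. In the clades other than A, 7 of 16 tested genes were higher, with a median of 0.42. The 7 included Serpinc1, Serpind1 and Serpinf2, which are also products of liver and had log2 fold changes of 4.02 to 4.19. Without these 3, 4 of 13 tested genes of the other clades were higher, with a median of 0.09. Of the 12 genes that did not pass, 5 had an estimate above 0 and 7 below it.

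**Figure D1:**
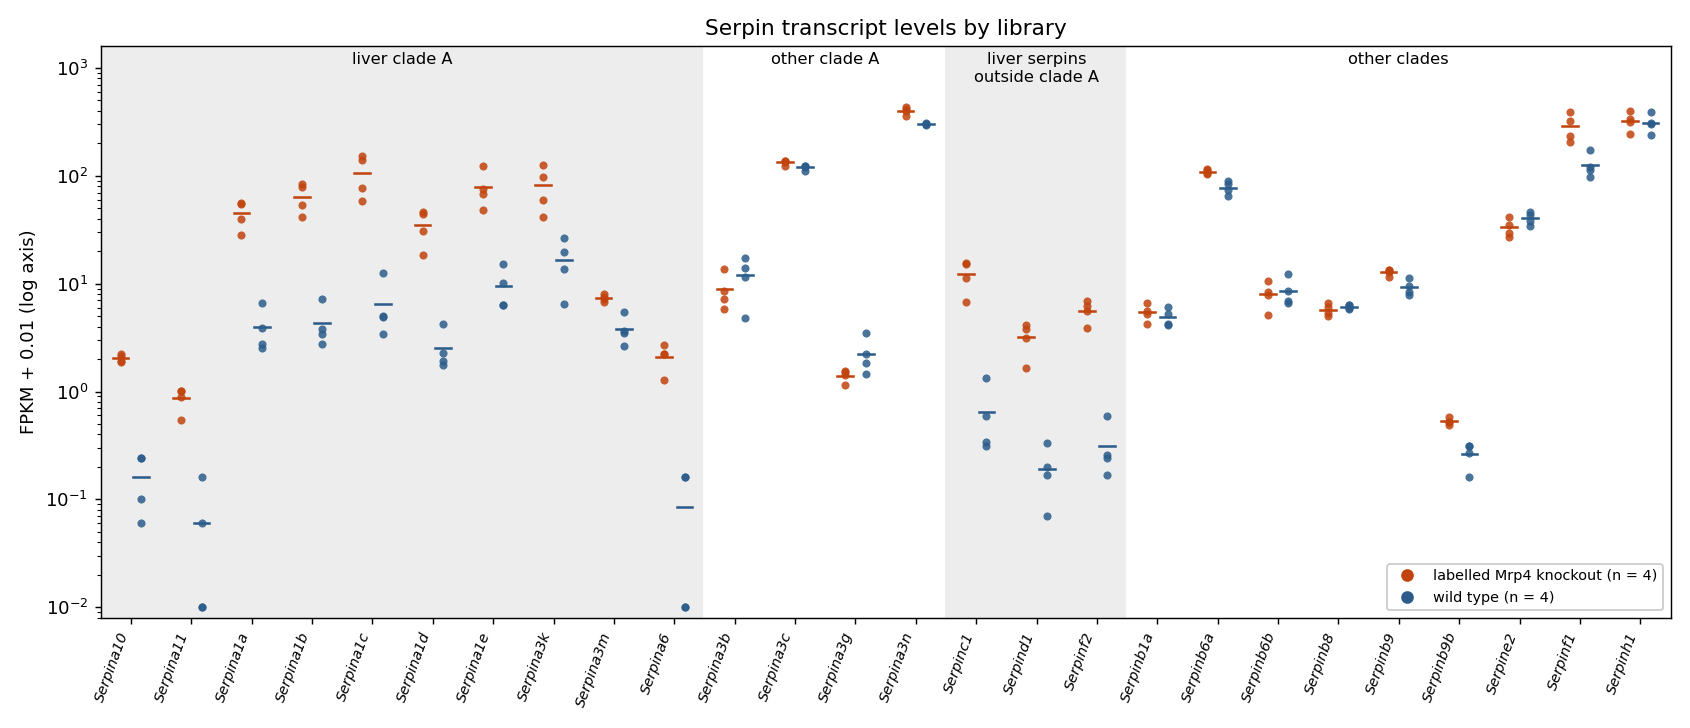
FPKM + 0.01 on a log axis for 26 serpins (mean of 1 FPKM or more in either group, or adjusted p under 0.05), ordered by class; points are libraries (n = 4 each) and lines are means. In the liver clade A class every KO-labelled library lies above every WT library, as in 16.4% of all tested genes. The points overlap in 5 of the 9 genes at the right, Serpinh1 and Serpine2 among them.

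**Figure D2:**
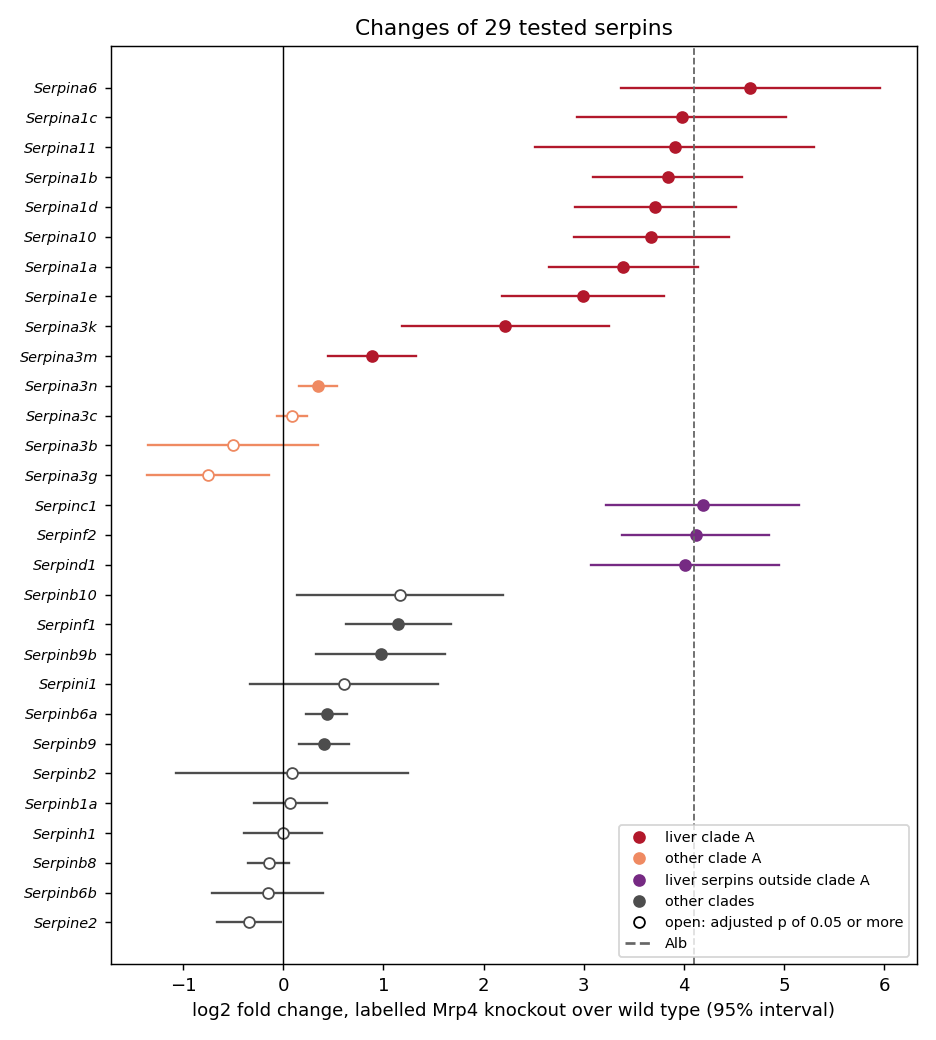
Log2 fold change (KO-labelled over WT) with its 95% interval for 29 tested serpins; filled points passed at an adjusted p under 0.05 and the dashed line marks Alb. Serpins of liver gather near the line at 4.10, with Serpina1e (2.99), Serpina3k (2.22) and Serpina3m (0.89) furthest to its left. The other serpins shown lie between -0.75 and 1.17.

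The Serpina1 genes encode the mouse forms of alpha-1-antitrypsin, the chief elastase inhibitor of plasma. The 5 copies differ in the loop that sets the target, and the target of each was not tested. Serpina1c was the most abundant of the 5 in KO-labelled libraries, at 58, 138.9, 151 and 77.3 FPKM in replicates 1, 2, 4 and 5, against 12.4, 3.43, 4.92 and 4.97 FPKM in WT replicates 1, 2, 3 and 4. KO-labelled replicates 2 and 4 were high and replicate 1 low, WT replicate 1 was the highest of its group, and the groups were far apart. The log2 fold change was 3.98 ± 0.46 (SE; edgeR adjusted p = 0.00121).

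Serpina1b was at 41.1, 78.1, 83.3 and 53.2 FPKM in KO-labelled libraries, against 7.22, 3.39, 3.77 and 2.74 FPKM in WT libraries (log2 fold change 3.84 ± 0.33, edgeR adjusted p = 0.00032). Serpina1a was at 28.4, 54.8, 56.5 and 39.7 FPKM in KO-labelled libraries, against 6.67, 2.53, 3.85 and 2.75 FPKM in WT libraries (3.39 ± 0.33, adjusted p = 0.000453). Both genes repeated the order of Serpina1c, with replicates 2 and 4 high and replicate 1 low among KO-labelled libraries and WT replicate 1 the highest in WT. Serpina1d was at 18.6, 43.8, 46.1 and 30.9 FPKM in KO-labelled libraries, against 4.21, 1.75, 2.27 and 1.89 FPKM in WT libraries (3.71 ± 0.36, adjusted p = 0.000449). Serpina1e was at 48.7, 75, 124.5 and 67.6 FPKM in KO-labelled libraries, against 15.3, 6.28, 10 and 6.39 FPKM in WT libraries (2.99 ± 0.36, adjusted p = 0.00124). Serpina1e was the highest of the 5 in WT libraries and had the lowest fold change, and its groups were still well apart. Summed over the 5 copies, which removes the question of how reads were divided among them, the level was 194.8, 390.5, 461.4 and 268.6 FPKM in KO-labelled libraries, against 45.8, 17.4, 24.9 and 18.7 FPKM in WT libraries. That sum rested on 3991 to 9488 expected counts per KO-labelled library and on 353 to 942 per WT library.

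Serpina3k encodes an abundant liver serpin that binds tissue kallikrein in rodents. It was at 41.6, 97.9, 125.9 and 59.8 FPKM in KO-labelled libraries, against 26.7, 6.52, 13.8 and 19.7 FPKM in WT libraries (log2 fold change 2.22 ± 0.46, edgeR adjusted p = 0.015). The groups did not overlap, and WT replicate 1 came closest to the lowest KO-labelled library. Serpina3m, its neighbour and close relative, was at 7.25, 6.73, 8.05 and 7.47 FPKM in KO-labelled libraries, against 3.47, 2.66, 3.66 and 5.43 FPKM in WT libraries (0.89 ± 0.20, adjusted p = 0.0176). Serpina3m did not follow the order of the Serpina1 genes: its 4 KO-labelled libraries were nearly level, and WT replicate 4, not replicate 1, was the highest in WT.

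The carriers and lesser members of the liver list were low in KO-labelled libraries and near 0 in WT libraries. Serpina6, which encodes corticosteroid-binding globulin, the plasma carrier of glucocorticoids, was at 1.27, 2.7, 2.22 and 2.21 FPKM in KO-labelled libraries, against 0.15, 0, 0 and 0.15 FPKM in WT libraries (4.66 ± 0.58, edgeR adjusted p = 0.00126). This was the highest fold change among the 30 tested serpins, and it rested on 172 expected counts over KO-labelled libraries and 6 over the WT libraries. Serpina10, which encodes the inhibitor of factor Xa known as protein Z-dependent protease inhibitor, was at 2.13, 1.88, 2.24 and 1.91 FPKM in KO-labelled libraries, against 0.23, 0.05, 0.23 and 0.09 FPKM in WT libraries (3.67 ± 0.35, adjusted p = 0.000358). Serpina11 was at 0.54, 0.87, 1.01 and 1.01 FPKM in KO-labelled libraries, against 0.15, 0.05, 0 and 0 FPKM in WT libraries (3.91 ± 0.62, adjusted p = 0.00443). Every KO-labelled library lay above every WT library in all 3 genes, as in 16.4% of all tested genes. Serpina10 varied little among KO-labelled libraries. Serpina7, which encodes thyroxine-binding globulin, was at 0.15, 0.38, 0.15 and 0.18 FPKM in KO-labelled libraries, against 0.06, 0, 0 and 0 FPKM in WT libraries. It had too few counts for the test, with 29 against 2, a ratio of 14.5 scaled to library totals, with an exact 95% interval of 3.67 to 125.4 that covers counting error only.

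The liver serpins outside clade A moved by about as much as the Serpina1 genes. Serpinc1 encodes antithrombin, the main inhibitor of thrombin and factor Xa. It was at 6.78, 15.4, 15.2 and 11.2 FPKM in KO-labelled libraries, against 1.33, 0.33, 0.58 and 0.3 FPKM in WT libraries (4.19 ± 0.43, edgeR adjusted p = 0.000532). Serpinf2, which encodes the plasmin inhibitor alpha-2-antiplasmin, averaged 5.61 ± 1.28 FPKM in KO-labelled libraries and 0.305 ± 0.187 FPKM in WT libraries (SD, n = 4 each; 4.12 ± 0.33 on the log2 scale, adjusted p = 0.000231). Serpind1, which encodes the thrombin inhibitor heparin cofactor II, averaged 3.17 ± 1.11 FPKM in KO-labelled libraries and 0.182 ± 0.107 FPKM in WT libraries (4.02 ± 0.42, adjusted p = 0.000532). The groups did not overlap in any of these 3 genes, where 16.4% of all tested genes had every KO-labelled library above every WT library. Their order among the libraries, low in KO-labelled replicate 1 and high in WT replicate 1, was that of the Serpina1 genes except in Serpind1. There WT replicate 1 was the lowest of its group. Set against the other clades, the liver clade A genes thus had the higher median (3.69 against 0.42), but the 3 liver serpins within those clades had a median of 4.12. The difference between the classes was not tested.

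The level of each liver serpin was also set against Alb, the serum albumin transcript, in the same library. Alb was at 310, 552.6, 508.8 and 496.3 FPKM in KO-labelled libraries, against 40, 23.1, 23.5 and 17.4 FPKM in WT libraries. Per 100 FPKM of Alb, Serpinf2 had a median of 1.18 FPKM (range 1.11 to 1.35) in KO-labelled libraries and of 1.19 FPKM (0.692 to 1.45) in WT libraries. Serpina1b had 13.7 FPKM (10.7 to 16.4) per 100 FPKM of Alb in KO-labelled libraries and 15.9 FPKM (14.7 to 18) in WT libraries. Serpina1c had 21.9 FPKM (15.6 to 29.7) in KO-labelled libraries and 24.7 FPKM (14.8 to 31) in WT libraries. The ranges of the groups overlapped for these 3 genes and also for Serpina1a, Serpina1d, Serpina10, Serpinc1 and Serpind1. For Serpina6 and Serpina11 the ratio was 0 in 2 of the 4 WT libraries, so an overlap says little. The median ratio of Serpina6 was 0.441 FPKM in KO-labelled libraries and 0.187 FPKM in WT libraries, and that of Serpina11 was 0.186 FPKM in KO-labelled libraries and 0.108 FPKM in WT libraries.

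The ranges did not overlap for Serpina1e, Serpina3k and Serpina3m, which were lower relative to Alb in KO-labelled libraries. Alb itself had a log2 fold change of 4.10, so a gene that rose less has a lower ratio to it. The lower ratios thus restate the smaller log2 fold changes of these 3 genes (2.99, 2.22 and 0.89). The share of all tested genes whose ratios to Alb lie apart was not computed. Serpina1e had 14.7 FPKM (13.6 to 24.5) per 100 FPKM of Alb in KO-labelled libraries and 37.4 FPKM (27.2 to 42.7) in WT libraries. Serpina3k had 15.6 FPKM (12.1 to 24.7) in KO-labelled libraries and 62.6 FPKM (28.2 to 113.1) in WT libraries. Serpina3m had 1.54 FPKM (1.22 to 2.34) in KO-labelled libraries and 13.5 FPKM (8.66 to 31.1) in WT libraries. With Apoa2 of the liver list in place of Alb, the log2 of the KO-labelled over the WT median fell from -0.21 to -0.56 in Serpina1b. In Serpina1d it fell from -0.51 to -0.84, and both shifts exceeded the spread between libraries. In Serpina1c it fell from -0.17 to -0.58, within that spread. With Apoa1 no shift exceeded it in a gene read in every WT library. Serpina1e, Serpina3k and Serpina3m stayed below 0 with both. The part of the liver transcripts in the rises of the liver serpins was not tested.

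**Figure D3:**
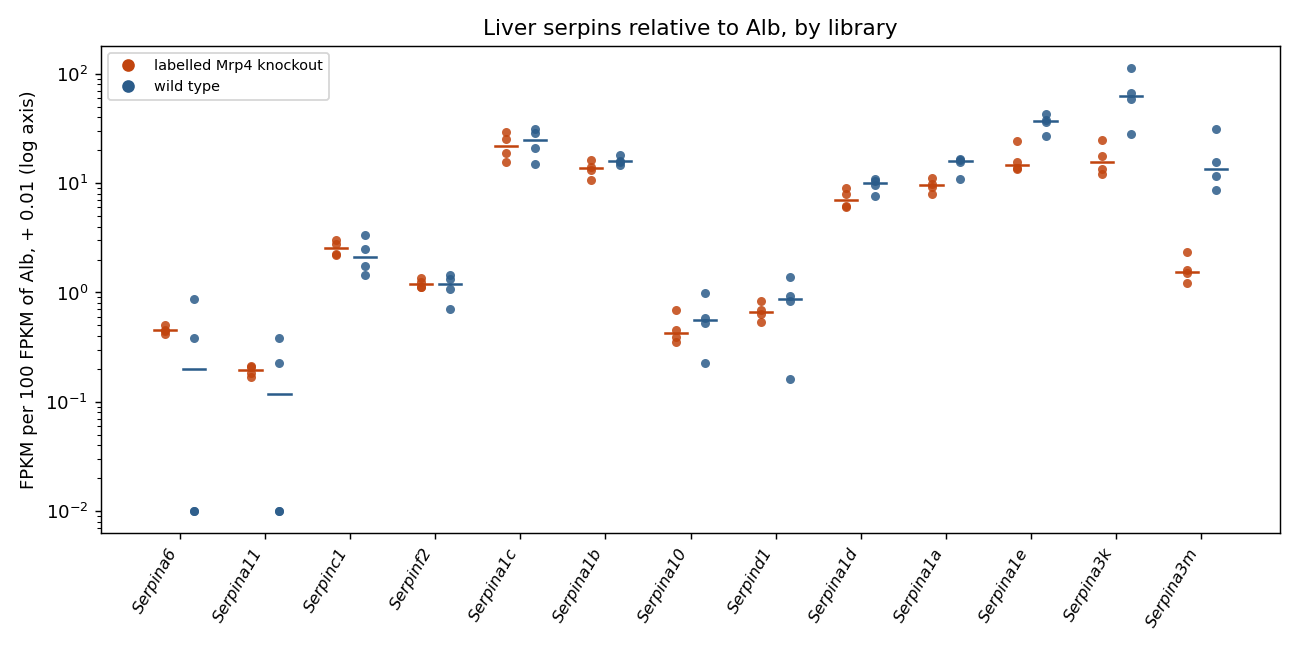
FPKM per 100 FPKM of Alb, plus 0.01, on a log axis for 13 serpins of liver; points are libraries and lines are group medians, ordered by the ratio of medians. The groups lie over each other for Serpinf2 (medians 1.18 KO-labelled, 1.19 WT) and apart for Serpina3m (1.54 and 13.5).

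The remaining clade A genes included Serpina3n, which had the highest mean of the 47 genes in KO-labelled libraries and, after Serpinh1, the next highest in WT libraries. Serpina3n, an acute-phase inhibitor made by many cell types, was at 396.5, 360.5, 414.6 and 434 FPKM in KO-labelled libraries, against 302.2, 302.1, 305.6 and 297.7 FPKM in WT libraries. WT libraries were nearly level, all below the KO-labelled ones, and the log2 fold change was 0.35 ± 0.09 (edgeR adjusted p = 0.0252). The call was lost in 5 of the 8 fits that left out a library (KO-labelled replicates 1, 4 and 5 and WT replicates 3 and 4), where the log2 fold change lay between 0.30 and 0.36. Serpina3c was at 124.1, 133.3, 138.2 and 137.1 FPKM in KO-labelled libraries, against 111.9, 123.6, 124.3 and 119.6 FPKM in WT libraries. Its groups overlapped by a hair, and the difference did not pass (0.09, 95% interval -0.06 to 0.24; adjusted p = 0.37). Serpina3b was at 5.79, 8.57, 13.8 and 7.16 FPKM in KO-labelled libraries, against 17.5, 4.75, 14 and 11.5 FPKM in WT libraries (-0.50, interval -1.35 to 0.35; adjusted p = 0.375), with wide overlap. Serpina3g averaged 1.39 ± 0.182 FPKM in KO-labelled libraries and 2.23 ± 0.884 FPKM in WT libraries (SD, n = 4 each; log2 fold change -0.75, adjusted p = 0.0803), and passed only in the fit without WT replicate 2 (-0.92, adjusted p = 0.0262).

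In the other 9 clade A genes of this class no group mean exceeded 0.73 FPKM, and none had enough counts for the test. Serpina3i and Serpina3j, neighbours in the Serpina3 cluster, pointed the other way from the liver genes. Serpina3i was at 0.1, 0.19, 0.03 and 0.03 FPKM in KO-labelled libraries, against 0.45, 0.2, 0.87 and 0.94 FPKM in WT libraries. Serpina3j was at 0.14, 0.24, 0.1 and 0.04 FPKM in KO-labelled libraries, against 1.31, 0.18, 0.46 and 0.97 FPKM in WT libraries. WT replicate 2 was the lowest of its group in both, just above KO-labelled libraries in Serpina3i and among them in Serpina3j. When edgeR was run without a filter on low counts both were lower, with log2 fold changes of -2.82 (adjusted p = 0.0168) in Serpina3i and -2.50 (adjusted p = 0.0324) in Serpina3j, and Serpina7 (3.49), Serpina4-ps1 (3.19) and Serpina3a (1.57) were higher. These rest on 11 against 77 expected counts in Serpina3i and 15 against 82 in Serpina3j, KO-labelled against WT. Serpina4-ps1 had 52 against 5 and Serpina3a 51 against 16. With the filter, Serpina3i passed without KO-labelled replicate 1 or 2 or WT replicate 2. It did not pass without KO-labelled replicate 4 (edgeR adjusted p = 0.0541) or 5 (adjusted p = 0.0505). Serpina3j passed without KO-labelled replicate 2 or WT replicate 2, but not without KO-labelled replicate 1, 4 or 5 (adjusted p of 0.072 to 0.0824). Serpina1f, a relative of Serpina1a known from the epididymis, was at 0 FPKM in all KO-labelled libraries, against 0, 2.1, 0.2 and 0.02 FPKM in WT libraries. It did not pass without the filter (edgeR adjusted p = 0.234). Of its 103 expected counts, 94 came from WT replicate 2, the library in which Crisp1, an epididymal gene, was at 13.5 FPKM. The part of epididymal tissue in the Serpina1f level was not tested.

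Among the other clades, 4 genes passed the test besides the listed liver serpins Serpinc1, Serpind1 and Serpinf2. Serpinf1 of clade F had the largest fold change of these 4. Serpinf1 encodes pigment epithelium-derived factor, a serpin that inhibits no protease and that adipocytes secrete. It was at 236.1, 207.3, 321.8 and 393 FPKM in KO-labelled libraries, against 97.3, 172.5, 119.5 and 113.1 FPKM in WT libraries. KO-labelled replicates 4 and 5 were highest, WT replicate 2 was the highest in WT, and the groups did not overlap (log2 fold change 1.15 ± 0.23, edgeR adjusted p = 0.0133). Serpinf1 did not share the library order of the Serpina1 genes, in which KO-labelled replicate 2 was high and WT replicate 2 low. It held its call in each of the 8 fits that left out a library, with log2 fold changes of 0.96 to 1.33. Of 10 adipocyte markers 1 was higher and 4 lower, with sums of 22320 to 26730 FPKM in KO-labelled libraries and 27790 to 31860 FPKM in WT libraries. Of 8 fibroblast markers 3 were higher and 1 lower, where 10.2% of all tested genes were higher and 8.05% lower. The part of these markers in the Serpinf1 change was not tested.

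In clade E, Serpine2, which encodes protease nexin 1, was at 29.6, 41.8, 26.9 and 34.7 FPKM in KO-labelled libraries, against 34, 43.4, 38.1 and 45.7 FPKM in WT libraries (log2 fold change -0.34, 95% interval -0.67 to -0.02; edgeR adjusted p = 0.122). The groups overlapped, and KO-labelled replicate 2 was the highest of its group. Serpine3 had at most 3 expected counts over a group. Markers of mesothelium, the cell layer that covers this fat depot, summed to 65.6, 173.2, 175.4 and 115.2 FPKM in KO-labelled libraries, against 262.9, 173.9, 275.1 and 179.1 FPKM in WT libraries. KO-labelled replicate 1 was the lowest in this sum, and the groups met at KO-labelled replicate 4 and WT replicate 2. Of the 9 markers 0 were higher and 1 lower, where 10.2% of all tested genes were higher and 8.05% lower. The part of these markers in the Serpine2 levels was not tested.

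In clade B, 3 of 8 tested genes were higher and 0 lower, where 10.2% of all tested genes were higher and 8.05% lower. Serpinb6a, an inhibitor inside cells, was the most abundant, at 106.2, 114.8, 113.1 and 104 FPKM in KO-labelled libraries, against 64.5, 89.4, 83.4 and 73.7 FPKM in WT libraries (log2 fold change 0.43 ± 0.09, edgeR adjusted p = 0.015). The groups did not overlap, and the call held in all 8 fits without a library. Serpinb9, the inhibitor that guards leukocytes against their own granzyme B, was at 12.8, 11.6, 13.3 and 13.5 FPKM in KO-labelled libraries, against 7.89, 9.45, 11.3 and 8.32 FPKM in WT libraries (0.41 ± 0.11, adjusted p = 0.0331). Its lowest KO-labelled library stood just above the highest WT library, and the call was lost without KO-labelled replicate 1, 4 or 5 or WT replicate 1 or 4. Serpinb9b averaged 0.518 ± 0.0377 FPKM in KO-labelled libraries and 0.253 ± 0.0709 FPKM in WT libraries (SD, n = 4 each; 0.97 ± 0.29, adjusted p = 0.0444). That call was lost in 7 of the 8 fits without a library, with DESeq2 (adjusted p = 0.102), and in edgeR with no filter on low counts (adjusted p = 0.0838). Markers of other cell types moved too: 5 of 11 macrophage markers were higher and 0 lower, with summed levels of 610.2 to 768.3 FPKM in KO-labelled libraries and of 457.5 to 554.3 FPKM in WT libraries. Of 10 tested T, NK and B cell markers 0 were higher and 1 lower, with sums of 16.2 to 23.4 FPKM in KO-labelled libraries and 16.3 to 21.5 FPKM in WT libraries. Of 8 endothelial markers 4 were higher and 0 lower, with sums of 499.3 to 532.5 FPKM in KO-labelled libraries and 294.5 to 467.4 FPKM in WT libraries. Their part in the clade B changes was not tested.

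The 5 clade B genes that did not pass included 3 at several FPKM. Serpinb6b averaged 8 ± 2.26 FPKM in KO-labelled libraries and 8.55 ± 2.56 FPKM in WT libraries (SD, n = 4 each; edgeR adjusted p = 0.686). Serpinb8 averaged 5.73 ± 0.7 FPKM in KO-labelled libraries and 6.08 ± 0.299 FPKM in WT libraries (adjusted p = 0.285). Serpinb1a, an inhibitor of neutrophil proteases, averaged 5.4 ± 0.976 FPKM in KO-labelled libraries and 4.91 ± 0.925 FPKM in WT libraries (adjusted p = 0.784). The 95% interval of the log2 fold change was -0.71 to 0.40 for Serpinb6b, -0.35 to 0.06 for Serpinb8 and -0.29 to 0.44 for Serpinb1a, so a doubling lies outside all 3. Serpinb2, Serpinb10 and, in clade I, Serpini1 were under 1 FPKM and did not pass, and 6 clade B genes had too few counts to be tested.

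Clade H consists of Serpinh1, which encodes HSP47, the collagen chaperone of the endoplasmic reticulum. It was at 316.6, 242, 400.3 and 334.8 FPKM in KO-labelled libraries, against 306.7, 303.9, 392.3 and 239.9 FPKM in WT libraries. The ranges were nearly the same (log2 fold change 0.00, 95% interval -0.40 to 0.39; edgeR adjusted p = 0.992). The collagen gene Col1a1, one of the chaperone's clients, was higher in the same comparison (160.1 ± 4.67 FPKM in KO-labelled libraries and 97.3 ± 9.87 FPKM in WT libraries; 0.65 ± 0.09, adjusted p = 0.00232).

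The summed level of the family was higher in KO-labelled libraries, and the liver list gained in share. Summed over the 47 genes, the level was 1803 ± 248 FPKM in KO-labelled libraries and 1109 ± 73.2 FPKM in WT libraries (SD, n = 4 each). The liver clade A genes made up 16.3% to 29.2% of that sum in KO-labelled libraries and 2.35% to 6.97% in WT libraries. The other clade A genes, mostly Serpina3n and Serpina3c, summed to 546.7 ± 35.2 FPKM in KO-labelled libraries and 438.5 ± 6.46 FPKM in WT libraries. Serpina3n alone averaged 401.4 FPKM in KO-labelled libraries and 301.9 FPKM in WT libraries. The other clades summed to 833.5 ± 124 FPKM in KO-labelled libraries and 623.4 ± 75.4 FPKM in WT libraries. Serpinf1 alone averaged 289.6 FPKM in KO-labelled libraries and 125.6 FPKM in WT libraries. Each of the 3 class sums was higher in every KO-labelled library than in every WT library, by little for the other clades (707.9 against 699.4 FPKM). The sums carry no TMM scaling and follow the most abundant genes. The median log2 fold change of tested genes was -0.21 in the other clade A genes. It was 0.09 in the other clades without the liver serpins.

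**Figure D4:**
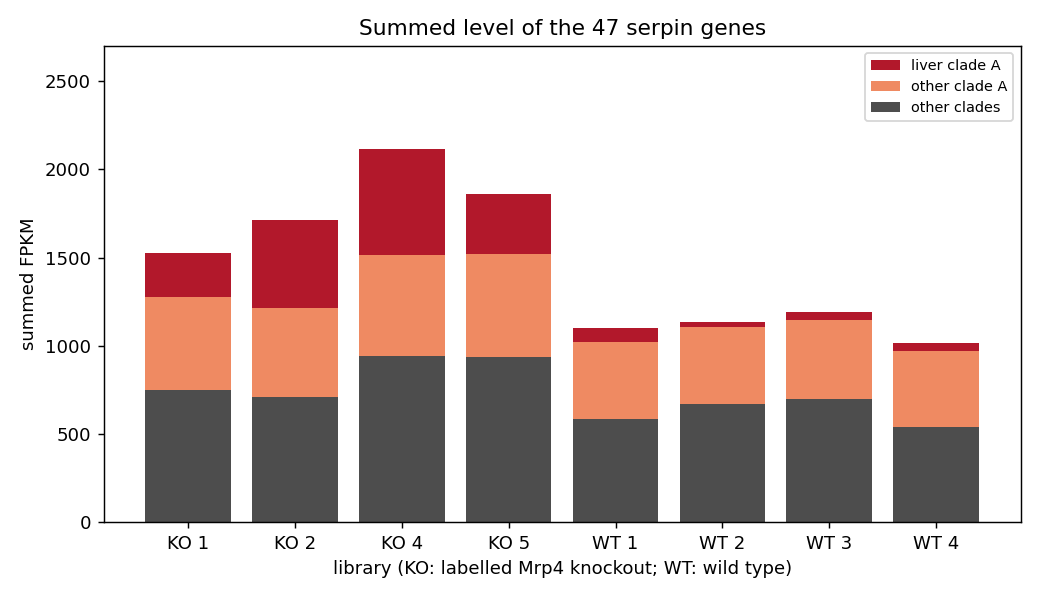
Summed FPKM of the 47 serpin genes in each library, split into liver clade A, other clade A and the other clades. Liver clade A reaches 600.9 FPKM in KO-labelled replicate 4 and at most 76.6 FPKM in a WT library, while the other clades hold 707.9 to 942.4 FPKM in KO-labelled libraries and 537.1 to 699.4 FPKM in WT libraries.

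Proteases and partners of serpins were read from lists in the same fit. Among proteases of coagulation and fibrinolysis, 10 of 12 tested genes were higher and 0 lower, where 10.2% of all tested genes were higher. The median log2 fold change of the 12 tested proteases was 3.63. F2, which encodes prothrombin, the target of antithrombin, averaged 11.6 ± 3.8 FPKM in KO-labelled libraries and 0.63 ± 0.265 FPKM in WT libraries (SD, n = 4 each; 4.12 ± 0.35, edgeR adjusted p = 0.000299). Plg, which encodes plasminogen, the precursor of the target of Serpinf2, averaged 11 ± 3.16 FPKM in KO-labelled libraries and 0.657 ± 0.414 FPKM in WT libraries (4.00 ± 0.38, adjusted p = 0.000427). Habp2 and F9, also proteases made in liver, had log2 fold changes of 4.14 and 4.81. Every KO-labelled library lay above every WT library in F2 and Plg, as in the liver serpins and in 16.4% of all tested genes.

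Among leukocyte and other target proteases, 2 of 14 tested genes were higher and 4 lower, with a median log2 fold change of 0.05. Among all tested genes 10.2% were higher and 8.05% lower. The count of higher genes was thus near that of the background and the count of lower genes above it, which was not tested. Elane encodes neutrophil elastase, the classical target of alpha-1-antitrypsin. It averaged 0.733 ± 0.153 FPKM in KO-labelled libraries and 1.66 ± 0.314 FPKM in WT libraries (-1.23 ± 0.26, edgeR adjusted p = 0.0159). The cysteine protease gene Ctss was higher (0.93, adjusted p = 0.00738). Ctsl (0.44) was higher and the mast cell protease gene Mcpt4 (-1.03) lower, each with a call that was lost in 6 of the 8 fits without a library. Of 8 tested neutrophil and mast cell markers 1 was higher and 5 were lower, with sums of 38.8 to 62.4 FPKM in KO-labelled libraries and 54.9 to 87.7 FPKM in WT libraries, and their part in these protease levels was not tested. Of 23 partners and clearance genes 5 were higher and 3 lower, with a median of -0.09, against the same 10.2% and 8.05% of all tested genes. Vtn, which encodes vitronectin, an adhesive protein of plasma and matrix, was higher (0.88 ± 0.17, adjusted p = 0.0121). Agt encodes angiotensinogen, which liver and fat both make and which is a serpin by structure, though its symbol keeps it out of the 47. It averaged 161.1 ± 36.9 FPKM in KO-labelled libraries and 286.8 ± 60.3 FPKM in WT libraries and was lower (-0.90 ± 0.19, adjusted p = 0.0148). The thyroid hormone receptor gene Thrb was lower (-0.47, adjusted p = 0.0153).

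In the GENCODE vM21 annotation 23 of the 24 clade A genes lie on chromosome 12, and Serpina7 lies on chromosome X. Serpina1b, Serpina1d, Serpina1a, Serpina1c and Serpina1e follow each other there among the members, between Serpina1f and Serpina11. Serpina3k, Serpina3m and Serpina3n stand next to each other in that order, with log2 fold changes of 2.22, 0.89 and 0.35. Serpinc1, Serpinf2 and Serpind1 lie on chromosomes 1, 11 and 16.

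The region before the start of transcription was searched for GTTAAT, the core of the site of the liver factor HNF1, on both strands. The search covered the 250 bases before each annotated start in RefSeq (GRCm38.p6), where 38 of the 47 genes had an entry. The run occurred in 6.43% of all 32851 promoters. Of the 9 promoters of 7 liver clade A genes 7 held it, namely all 5 of the Serpina1 genes and both of Serpina7, and the 2 of Serpina11 did not; Serpina3k, Serpina3m, Serpina6 and Serpina10 had no entry. It occurred in 0 of the 3 promoters of the liver serpins outside clade A, in 1 of 11 promoters of the other clade A genes and in 1 of 22 promoters of the other clades without the liver serpins. The AP-1 run TGACTCA, whose matches overlapped those of GTTAAT in 0 of the 45 serpin promoters, was in 4.46% of all promoters, in those of Serpina1a, Serpina1b, Serpina1c and Serpina1d, and in 2 of the 22. The Serpina1 promoters are copies of each other, so their matches are not separate observations, and a match in letters is not a site. Serpina1c and Serpina1e are shown as the steepest and the least steep of the 5, each with the last 100 bases before its start, 5′ to 3′ on the minus strand and GTTAAT in capitals.
Serpina1c, chr12:103904951-103905050: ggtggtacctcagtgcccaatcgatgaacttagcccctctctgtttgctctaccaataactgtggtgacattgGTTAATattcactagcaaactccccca
Serpina1e, chr12:103956898-103956997: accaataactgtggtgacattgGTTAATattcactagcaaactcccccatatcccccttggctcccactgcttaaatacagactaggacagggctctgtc

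The same stretch around GTTAAT is found in both, nearer to the annotated start in Serpina1c than in Serpina1e.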

How the data were processed

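The submitters' processing notes name Bowtie2 and the build mm9, with no version of the aligner; the sources used here give no quantifier. In each library's table the authors deposited an expected count and an FPKM value per gene, and another value, transcript length. A gene not listed in a library was taken as 0. Expected counts, rounded, went into edgeR 4.0.16 under R 4.3.3 (TMM scaling, filterByExpr, glmQLFit with robust=TRUE, two-sided glmQLFTest, genotype alone). Standard errors were taken as |log2 fold change| over the root of F; FPKM means carry the SD of 4 libraries. The scripts were tested on simulated data. Alternatives were DESeq2 size factors, library size alone, 2 other filters, DESeq2 1.42.0, limma 3.58.1 on log2(FPKM + 1) and log2(FPKM + 0.1), each library left out and a replicate block. Expected counts summed to 14064681 to 14700114 per library, and the labels name no molecular identifiers. Use of strand is not stated. The serpins, the lists of genes and the tests were chosen with earlier results of these data known; serpins at a mean of at least 1 FPKM in either group or with an adjusted p under 0.05 are named, Serpina1f, Serpina3a, Serpina3i, Serpina3j and Serpina4-ps1 after their values were seen. In pathway lists, up to 4 genes with the lowest p at a mean of at least 1 FPKM are named. Likeness was computed from coding bases of GENCODE vM21, since no protein table was used here; transcripts of 45 of the 47 genes were matched by RefSeq accession and the others by symbol. Some results are not reported here.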

Additional observations from a re-analysis of the deposited data

How the results depend on the processing

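All 10 tested liver clade A serpins stayed higher in each of the 8 fits without a library and under every other scaling, filter and tool named here except the replicate block. The count of all genes that changed was 2606 and ran from 1172 (without WT replicate 4) to 3683 (without WT replicate 2); that of serpins higher was 18 and ran from 15 to 20, of serpins lower 0 and from 0 to 3. Of the other clade A genes 1 was higher and 0 lower, with 0 to 3 and 0 to 3 without a library; of the other clades 7 were higher and 0 lower, with 5 to 7 and 0 to 1. Without WT replicate 2, 20 serpins were higher. Without a filter on low counts 3 of the other clade A genes were higher and 2 lower, so that 2 serpins were lower in all. With library size alone 1950 of 2630 changed genes were higher, against 1458 of 2606 with TMM scaling, and the 18 serpin calls were the same genes. DESeq2 called 17 of the 18 and no others. No log2 fold change of a called serpin turned. Serpinh1, near 0, became 0.0608 with library size alone, 0.0566 and 0.0568 with limma at pseudocounts of 1 and 0.1, 0.0728 with the replicate block and -0.12 to 0.12 without a library; Serpinb1a ran from -0.0323 to 0.19 and Serpinb6b from -0.32 to 0.0581. The cause was not tested.

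With the replicate block 141 genes changed, and of the serpins 3 were higher (1 of liver clade A, 0 of the other clade A genes, 2 of the other clades). Numbers 1, 2 and 4 occur in both groups. The deviations of same-numbered libraries from their group means, over all tested genes, correlated at 0.0107, -0.0746 and -0.128. These values show no clear pairing over all tested genes, but cannot decide whether the numbers pair the libraries in a part of them. The fit leaves few residual degrees of freedom.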
